A study of Mus musculus with 8 samples.

Results

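The zona pellucida genes Zp1, Zp2 and Zp3, the oocyte-secreted protein gene Oosp1 and the ovastacin gene Astl were followed in mouse germinal vesicle (GV) oocytes, the fully grown oocytes arrested before the first meiotic division. The members were the probe sets whose only gene symbol in the platform annotation was 1 of these 5 names. There were 5 such probe sets among 45101 on the array, 1 for each of 5 genes of the 18193 named there, and 0 of them carried an older symbol. A probe set is a group of short array probes that are read together as 1 value. Each of these genes had 1 such probe set, which was its only reading here.

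The zona pellucida is the glycoprotein coat that the growing oocyte secretes around itself. In the mouse it is built from filaments of ZP2 and ZP3, which ZP1 cross-links, and sperm bind to its ZP2. Ovastacin is a metalloprotease of the astacin family that is stored in cortical granules under the egg membrane, is released at fertilization and cleaves ZP2, after which sperm no longer bind. Oosp1 encodes a small secreted protein of the oocyte. The oocyte factor FIGLA, a basic helix-loop-helix protein, switches on the zona genes through E-boxes, short sites of the form CANNTG. Fully grown oocytes make little new RNA and rely on stored messages.

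Total RNA was measured on 8 single-colour arrays. The labels give 4 samples of untreated GV oocytes and 4 samples of GV oocytes held for 48 h in culture with milrinone, which blocks the phosphodiesterase PDE3A and so keeps oocytes at the GV stage. A total of 15 µg of biotinylated cRNA was put on each array, so a level is relative to the other RNA of its sample. The labels used here state no strain, age, oocyte number or drug dose. They name no group cultured without milrinone, so drug, culture and elapsed time cannot be told apart. They also do not say that replicates came from separate animals, and a p-value here speaks only to the spread among these 8 samples, part or all of which may be technical.

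The promoter sequences show what lies just before the annotated start of these genes, where FIGLA is known to act on the zona genes. In the RefSeq promoter table of the build GRCm38.p6, 3 of the 5 members were matched, namely Zp3, Oosp1 and Astl, and Zp1 and Zp2 were not. The 250 bases before the start are at chr5:135979855-135980104 on the plus strand for Zp3, at chr19:11691052-11691301 on the minus strand for Oosp1, and at chr2:127341386-127341635 on the plus strand for the second of 2 annotated starts of Astl. Each sequence runs 5′ to 3′ toward the start, and capitals mark the E-box matches.
Zp3: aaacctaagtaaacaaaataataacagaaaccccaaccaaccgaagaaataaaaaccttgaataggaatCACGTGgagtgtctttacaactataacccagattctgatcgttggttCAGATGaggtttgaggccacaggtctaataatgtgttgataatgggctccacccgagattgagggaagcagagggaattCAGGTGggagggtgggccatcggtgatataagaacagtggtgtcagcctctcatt
Oosp1: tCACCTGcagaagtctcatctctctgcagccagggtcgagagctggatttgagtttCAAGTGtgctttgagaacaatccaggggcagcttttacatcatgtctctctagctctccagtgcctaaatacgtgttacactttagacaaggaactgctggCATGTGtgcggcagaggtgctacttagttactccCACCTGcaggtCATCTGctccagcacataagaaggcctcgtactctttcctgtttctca
Astl: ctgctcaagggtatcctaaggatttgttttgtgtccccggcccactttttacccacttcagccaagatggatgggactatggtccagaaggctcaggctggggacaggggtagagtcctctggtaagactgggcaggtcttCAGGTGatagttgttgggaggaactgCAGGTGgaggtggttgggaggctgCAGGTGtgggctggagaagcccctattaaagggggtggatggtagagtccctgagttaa

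CANNTG was searched for with all overlaps, and since its fixed letters read the same on both strands, a match counts for both. Zp3 held 3 matches. The one farthest from the start, between -181 and -176, was CACGTG, a form found in 6.02% of 32851 RefSeq windows of the same length. The match nearest the start, CAGGTG, lay between -55 and -50. The Oosp1 window held 5 matches, of which 2 read CACCTG, the reverse complement of CAGGTG. The second start of Astl had 3 matches, all CAGGTG, between -109 and -54, and the first start, whose window lies at chr2:127338389-127338638, had 0. CAGGTG on either strand was found in 17.2% of all windows and CANNTG in 66.2%, so a match of the general form is common. These are matches of letters, not measured binding.

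**Figure D1:**
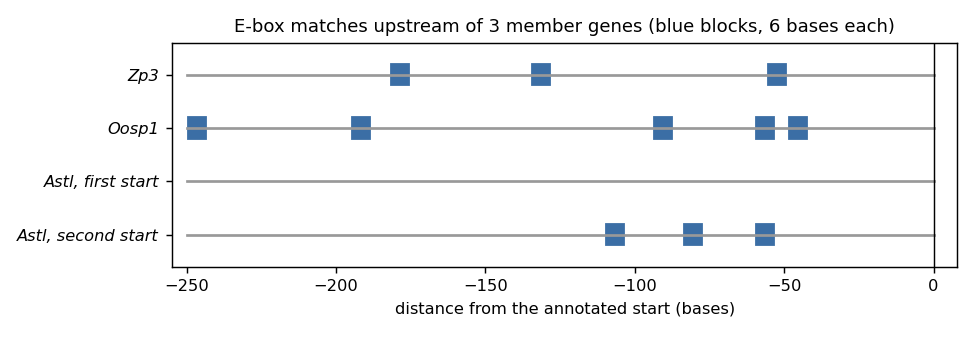
Positions of CANNTG matches in the 250 bases before the annotated start of Zp3, Oosp1 and both starts of Astl. The horizontal axis is the distance from the start in bases, and each blue block is 1 match of 6 bases. Zp3 has 3, Oosp1 has 5, and the 2 starts of Astl have 0 and 3.

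Among the proteins of the zona filament, Zp3 had deposited intensities of 16173, 18438, 17348 and 17399 on untreated arrays 1 to 4 and 15646, 17028, 16305 and 16870 on milrinone arrays 1 to 4. The values are linear and in arbitrary units. Untreated 2 was the highest of the 8 and milrinone 1 the lowest, and the groups overlapped. The untreated mean was 17339 ± 926 (SD, n = 4) and the milrinone mean 16462 ± 626 (SD, n = 4). On the scale of log2(intensity + 16), milrinone minus untreated was -0.074 (SE 0.054, 95% interval -0.19 to 0.047, limma adjusted p = 0.633), a change between -12.6% and 3.29% in intensity + 16. Without untreated 2 it was -0.044.

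Zp2, whose product is cut by ovastacin, had 15557, 17231, 16001 and 15742 on the untreated and 13928, 14882, 15108 and 16251 on the milrinone arrays. Milrinone arrays 1, 2 and 3 lay below all 4 untreated arrays, and milrinone 4 lay above 3 of them. The untreated mean was 16132 ± 754 (SD, n = 4) and the milrinone mean 15042 ± 954 (SD, n = 4). The log2 difference was -0.10 (SE 0.060, 95% interval -0.24 to 0.031, limma adjusted p = 0.569), or -15.0% to 2.21% in intensity + 16, and it was -0.066 without milrinone 1.

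Zp1, the cross-linker, had 9547, 11712, 9856 and 9012 on the untreated and 9187, 9194, 9284 and 10567 on the milrinone arrays. Untreated 2 and milrinone 4 stood above the other 6 arrays, which fell within 9012 to 9856 whichever group they came from. The untreated mean was 10032 ± 1173 (SD, n = 4) and the milrinone mean 9558 ± 674 (SD, n = 4). The log2 difference was -0.065 (SE 0.089, 95% interval -0.26 to 0.13, limma adjusted p = 0.801), and without untreated 2 it was 0.012 (adjusted p = 0.959).

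Astl, which encodes the protease that acts on the coat, had 4365, 5385, 4222 and 3824 on the untreated and 3835, 3687, 3636 and 4164 on the milrinone arrays. Untreated 1, 2 and 3 were above every milrinone array, and untreated 4 lay among the milrinone values. The mean was 4449 ± 664 (SD, n = 4) against 3831 ± 238 (SD, n = 4). This was the largest difference of the 5, at -0.21 on the log2 scale (SE 0.11, 95% interval -0.45 to 0.041, limma adjusted p = 0.553), and -0.11 without untreated 2 (adjusted p = 0.658).

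Oosp1, the secreted protein gene, had 18512, 19502, 19901 and 21544 on the untreated and 19837, 20336, 20003 and 19650 on the milrinone arrays. All 4 milrinone values lay inside the range of the untreated ones. The SD was 1263 (n = 4) in untreated and 292 (n = 4) in milrinone samples, around means of 19865 and 19956, and the difference in spread was not tested. The log2 difference was 0.0087 (SE 0.052, 95% interval -0.11 to 0.12, limma adjusted p = 0.959), and it turned to -0.025 without untreated 1.

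**Figure D2:**
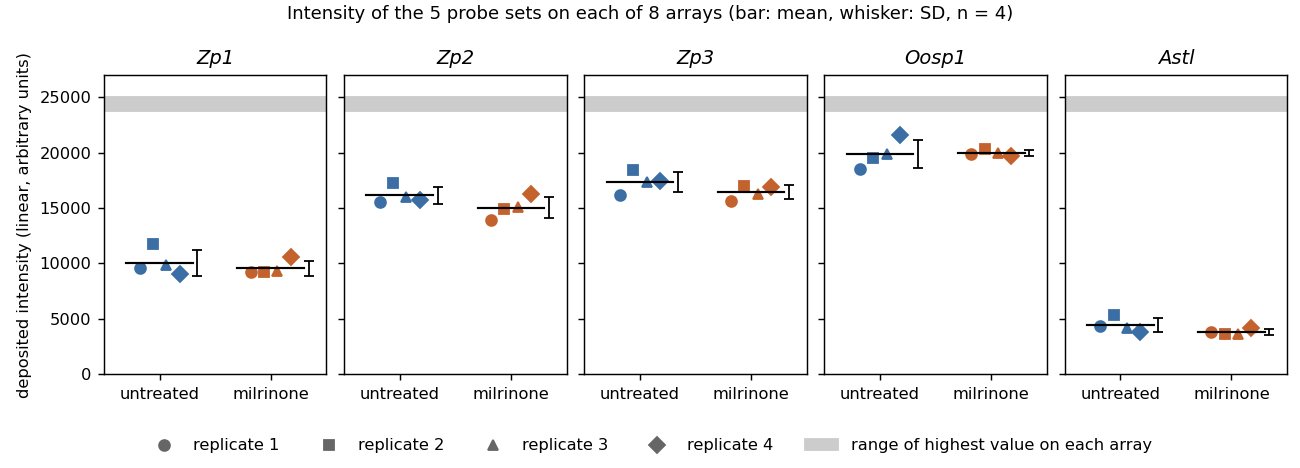
Deposited intensity (linear, arbitrary units) of each probe set on the 4 untreated and 4 milrinone arrays, with 1 marker shape per replicate number, a bar at the group mean and a whisker of 1 SD. The grey band spans the highest value listed on each array, 23742 to 24974, and Oosp1 lies nearest to it.

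Of the 5 probe sets, 0 passed the limma test at an adjusted p under 0.05 over all 16288 tested probe sets, of which 0.117% passed, and 0 had an unadjusted p under 0.05, against 9.63% of all. The groups lay apart, without overlap, for 0 of the 5 and for 7.8% of all tested probe sets. The exact two-sided permutation test over the 4 and 4 arrays, whose smallest possible p is 0.0286, gave p = 0.0857 for Astl, 0.143 for Zp2, 0.171 for Zp3, 0.543 for Zp1 and 0.8 for Oosp1, or 0.286 to 0.8 after Benjamini-Hochberg adjustment over the 5. The difference was below 0 for 4 of the 5 and for 38% of all tested probe sets, whose median was 0.063. Centring the arrays on ribosomal protein genes, which moved that median to 0.24, turned the sign of 3 of the 4, to 0.11 for Zp1, 0.075 for Zp2 and 0.10 for Zp3, and left Astl at -0.029 and Oosp1 at 0.19. Median centring gave -0.095 for Zp1, -0.13 for Zp2, -0.10 for Zp3, -0.235 for Astl and -0.021 for Oosp1. There the limma unadjusted p was 0.0322 for Zp2, 0.0447 for Zp3 and 0.0368 for Astl (adjusted p 0.519 to 0.538). With array weights the limma unadjusted p was 0.0476 for Zp2, 0.0364 for Zp3 and 0.023 for Astl (adjusted p 0.316 to 0.391).

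**Figure D3:**
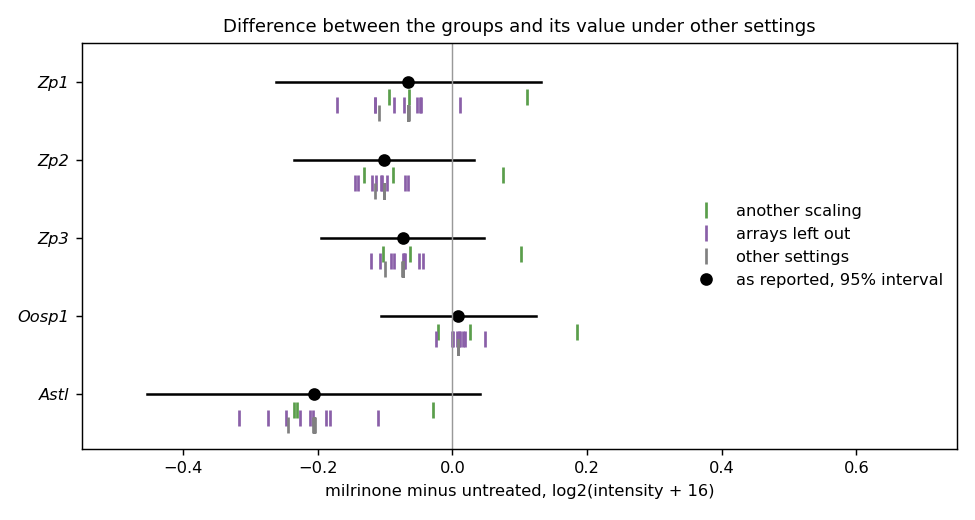
Milrinone minus untreated on the log2(intensity + 16) scale for each gene. Black points and lines are the estimate and its 95% interval over 8 arrays, and coloured ticks are the same difference under other scalings, with arrays left out and under other settings. All 5 intervals include 0, and the green tick at the far right of each gene is the centring on ribosomal protein genes.

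Several of these probe sets sat near the top of the range of the arrays. Oosp1 reached 78.0% to 86.3% of the highest value listed on its array and ranked between 4 and 16 among the 18605 to 23269 listed probe sets. Zp3 reached 64.8% to 77.2% (rank 14 to 39) and Zp2 reached 57.6% to 72.1% (rank 25 to 69). Zp1 was at 36.1% to 49.0% (rank 150 to 321). Astl, farther down, was at 15.2% to 22.5% (rank 965 to 1727).

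Replicate spread narrowed as signal rose. The median within-group SD of log2 values was 0.26 for the 7687 tested probe sets with a mean under 500, 0.19 for the 2190 between 2000 and 5000, which include Astl, 0.14 for the 823 between 5000 and 10000, which include Zp1, and 0.064 for the 44 above 15000, which include Zp2, Zp3 and Oosp1. The members' own SDs were 0.16 for Astl, 0.13 for Zp1, 0.080 for Zp2, 0.067 for Zp3 and 0.066 for Oosp1. Differences between the groups narrowed as well. A difference over 0.5 in size was seen for 10.6% of the probe sets under 500 and for 0 of the 44 above 15000, where the largest was 0.42 and 0 had an unadjusted p under 0.05 (limma). Whether a change in message would appear in full at such signals was not tested, so the narrow intervals of Zp2, Zp3 and Oosp1 bound the difference in signal and not in transcript number.

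Against probe sets of like signal, Astl lay toward the low end. Of the 2190 between 2000 and 5000, 7.22% had a lower difference than Astl, and their median was 0.071. Of the 823 between 5000 and 10000, 20.2% had a lower difference than Zp1. Of the 44 above 15000, 9.09% lay below Zp2, 11.4% below Zp3 and 59.1% below Oosp1. These positions are given without a test.

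**Figure D4:**
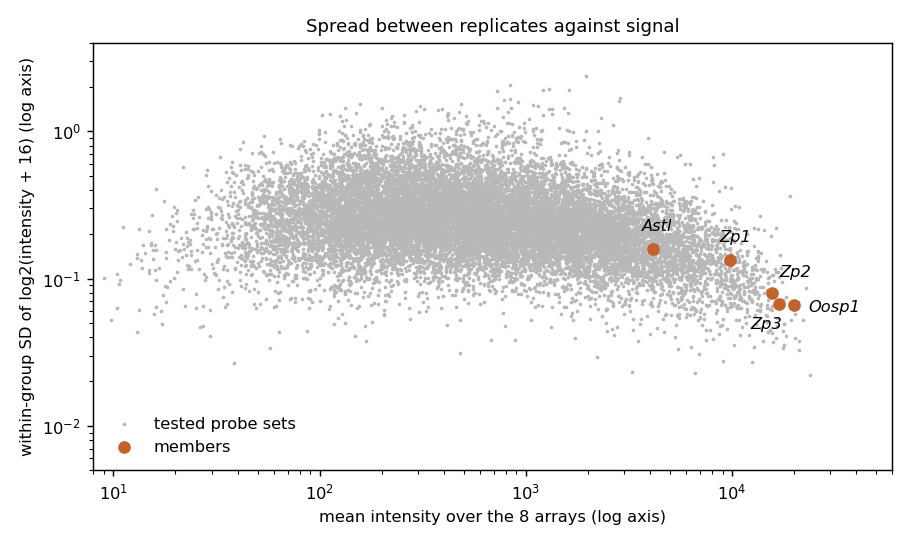
Within-group SD of log2(intensity + 16) against mean intensity over the 8 arrays, both on log axes, for the tested probe sets (grey) and the 5 members (orange). Spread falls toward the right, and Zp2, Zp3 and Oosp1 lie at 0.066 to 0.080 in the brightest part of the plot.

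Untreated 2 was the highest untreated array for 4 of the 5 genes, all but Oosp1, and milrinone 4 was the highest milrinone array for Zp1, Zp2 and Astl. Zp3 and Oosp1 were both highest among milrinone arrays on milrinone 2. Both, like Zp2, were lowest among untreated arrays on untreated 1. As a description over 8 arrays that share their scaling, with no test, Pearson's r was 0.90 between Zp1 and Astl, 0.84 between Zp2 and Zp3 and 0.81 between Zp1 and Zp2, and at least 0.62 for each other pair of these 4 genes. Spearman's rho for these pairs ran from 0.24, for Zp3 and Astl, to 0.76, for Zp1 and Zp2. Without untreated 2 the r of Zp1 and Astl was 0.65, of Zp2 and Zp3 0.71, of Zp1 and Zp3 0.17 and of Zp3 and Astl 0.066, so the last 2 rested on that array. Leaving out the 2 arrays farthest from the median of the first-named gene gave 0.75 for Zp1 and Astl, 0.47 for Zp1 and Zp2, 0.34 for Zp2 and Zp3 and -0.095 for Zp3 and Astl. Of 14386 other probe sets listed on all 8 arrays, 0.271% had a higher r with Astl than Zp1 had.

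The r of Oosp1 with the other members was between -0.49, with Astl, and 0.26, with Zp3. Without untreated 2 these were -0.64 and 0.56, so the r of Zp3 was then higher with Oosp1 than with Zp1 or Astl. Without the 2 farthest arrays, by Oosp1 in the pair with Astl and by Zp3 in the pair with Zp3, they were -0.79 and 0.73. Among untreated arrays Oosp1 was lowest on untreated 1 and highest on untreated 4. Those arrays listed the most and the fewest probe sets of the untreated arrays, 23269 and 18888, and the other untreated arrays fell between them on both measures. Milrinone arrays 1 to 4 listed 18605, 18836, 18731 and 19448 probe sets, with Oosp1 at 19837, 20336, 20003 and 19650. Milrinone 1, 2 and 3 thus listed fewer probe sets than untreated 4 but had lower Oosp1 values. The oocyte marker list, 12 probe sets that include none of the members, reached its highest summed intensity on untreated 2 (110434) and its lowest on untreated 1 (93470). Among milrinone arrays its sums on milrinone 4 (104224) and milrinone 2 (104053) were nearly equal. Gdf9, a growth factor gene of the oocyte and 1 of those markers, had 22872 on untreated 2 and 21717 on milrinone 4 against 20134 to 21678 on the other 6. The part of these array differences in the members' values was not tested.

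The genes whose pattern over the 8 arrays was most like that of each member were taken by the highest r among the 14386 probe sets. For Zp2 these were Cd9 (r = 0.98), which encodes the egg membrane tetraspanin needed for sperm fusion, and Atp6ap2 (0.98), an accessory protein gene of the proton pump. For Zp1 they were Patl2 (0.97), an RNA-binding protein gene of oocytes, and Gm5065 (0.97), and for Zp3 the adaptor gene Nck1 (0.97) and Klhl8 (0.97). For Astl they were Sec16b (0.98), which encodes a protein of endoplasmic reticulum exit sites, and the lipid kinase gene Pi4k2a (0.98). For Oosp1 they were Brwd3 (0.997) and Cnot6l (0.99), which encodes a deadenylase. The likeness is of pattern and not of level or size of change, since Brwd3 ran from 116 to 437 and Oosp1 from 18512 to 21544. These r are given over all 8 arrays only. With 8 arrays and this many probe sets high values of r are common, and 442 probe sets, 3.07%, passed 0.9 with Oosp1 against 26 to 71 with the other members.

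The factors known to drive zona and other oocyte genes were measured by 9 tested genes of a list of 10, and 0 passed (limma). None reached an unadjusted p under 0.05 (limma), against 9.63% of all tested probe sets. The median log2 difference was 0.11, against 0.066 over all tested genes. Figla had 548, 882, 639 and 485 on the untreated and 704, 764, 616 and 862 on the milrinone arrays, a difference of 0.23 (95% interval -0.21 to 0.66), which was 0.39 without untreated 2, 0.11 without untreated 4 and 0.15 without milrinone 4. The groups overlapped, and the untreated value ran highest on untreated 2, as for the zona genes. The homeobox gene Nobox differed by 0.024 (-0.24 to 0.28), and was highest on the same arrays, at 10739 on untreated 2 and 10103 on milrinone 4. Lhx8, another homeobox gene of the oocyte, differed by 0.11 (-0.18 to 0.39). The E-protein genes Tcf3 and Tcf12, whose products pair with basic helix-loop-helix factors such as FIGLA, differed by -0.28 (-0.59 to 0.027) and 0.41 (-0.051 to 0.86), although Tcf12 was at 0.25 without untreated 4 and its second probe set differed by -0.83. Sohlh2, a basic helix-loop-helix gene of early oocytes, differed by 0.24 (-0.12 to 0.60), and by 0.15 without milrinone 2.

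Among egg surface and other secreted proteins, 0 of 9 tested genes passed (limma) and the median was -0.047. Only Cd81 reached an unadjusted p under 0.05, as did 9.63% of all tested probe sets. Oosp2 and Oosp3 belong with Oosp1 to a small family of oocyte-secreted proteins. Oosp2 had 9493, 8097, 10665 and 11113 on the untreated and 11237, 10704, 11588 and 11301 on the milrinone arrays, a difference of 0.20 (95% interval -0.011 to 0.41, adjusted p = 0.517). In all, 3 of the 4 milrinone values lay above all untreated ones, and without untreated 2, the lowest array, the difference was 0.11. Oosp3 had 13999, 16085, 16047 and 17233 and then 15300, 16698, 15923 and 15968, a difference of 0.015 (-0.13 to 0.16), and like Oosp1 it was lowest on untreated 1 and highest on untreated 4. Izumo1r, which encodes the egg receptor for sperm IZUMO1, differed by -0.047 (-0.42 to 0.32) and had its highest value, 3624, on untreated 4.

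The tetraspanin genes of the egg surface had the lowest differences among the 9 tested genes of that list. Mfge8, the untested gene of the list, had values on 3 untreated and 0 milrinone arrays. Cd9 had 1759, 2637, 1682 and 1730 on the untreated and 949, 1240, 1339 and 2211 on the milrinone arrays, a difference of -0.48 (95% interval -1.02 to 0.057, adjusted p = 0.532), with 3 of 4 milrinone arrays below all untreated ones, and was -0.31 without milrinone 1. Cd81 had 2247, 369, 401 and 220 on the untreated arrays and 74.3, 101 and 62.1 on milrinone arrays 1, 2 and 3, with an empty cell on milrinone 4. Its difference of -2.53 (-3.96 to -1.09, adjusted p = 0.395) did not pass, and was -1.84 without untreated 1 (adjusted p = 0.0247).

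Cd81 was highest on the array with the most granulosa signal. Markers of granulosa, cumulus and theca cells, the cells that surround the oocyte in its follicle, had values at 21 to 29 of 38 probe sets on an untreated array and at 11 to 18 on a milrinone array. Their summed intensity, taken only over the probe sets with a value on the array, was 86456 on untreated 1. It was between 19894 and 22971 on untreated 2, 3 and 4, and between 2861 and 3836 with milrinone. The marker genes Cyp17a1 and Npr2 had no value on any milrinone array, and Amh had none on any of the 8. By the brightest probe set, Inha, Inhba, Fshr and Hsd3b1 had values on 4 untreated and on 2, 1, 2 and 2 milrinone arrays. Star had values on 2 untreated and 0 milrinone arrays, Has2 and Ptx3 on 2 of each, and Ptgs2 on 1 and 2. None of these could be tested. Of 7 tested marker genes, from 18 on the array, Gja1 and Grem1 fell (limma, adjusted p = 0.0109 and 0.00482). Hsd17b1 differed by -2.48 (limma adjusted p = 0.456). In all, 6 of the 7 differed below 0, with Kitl at -0.077, against 38% of all tested probe sets. The tested probe set of Cyp11a1 went the other way, at 0.29 (95% interval -0.14 to 0.72). Its brightest probe set had values on 4 untreated and 0 milrinone arrays and was not tested. Without untreated 1, 4 of the 7 passed, and without milrinone 3 only Grem1 did. Over all tested probe sets the calls moved too, from 19 with all arrays to 69 and 9 in these settings. In such pooled RNA, fewer cells of a type and less RNA per cell cannot be told apart. The oocyte markers were listed at 12 of 12 probe sets on every array, with sums of 93470 to 110434 in untreated and 98822 to 104224 in milrinone samples. Across the zona, Oosp1 and Astl probe sets the lowest untreated array was untreated 1 for 3 genes and untreated 4 for 2. The part of granulosa RNA in any value of these genes or of Cd81 was not tested.

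Genes of cortical granule traffic, exocytosis and zona processing, the machinery that would carry ovastacin out of the egg, had 0 of 11 tested genes past the threshold (limma). Vamp3 and Myo5a, 2 of the 11, reached an unadjusted p under 0.05, as did 9.63% of all tested probe sets, and the median was 0.033. Vamp3, a vesicle fusion protein gene, had 3669, 2256, 1353 and 958 on the untreated and 570, 875, 1269 and 694 on the milrinone arrays and differed by -1.14 (95% interval -1.99 to -0.29, adjusted p = 0.465). It was highest on untreated 1, and the groups overlapped. The other probe sets of Vamp3 differed by -1.47, -0.91, -0.53 and 0.16. Myo5a, a myosin motor gene, had 614, 843, 1050 and 779 and then 1101, 1207, 1092 and 1126, a difference of 0.48 (0.12 to 0.84, adjusted p = 0.470), with every milrinone value above every untreated one. Groups lay apart in this way, in 1 direction or the other, for 7.8% of all tested probe sets. The other probe sets of Myo5a disagreed, at 0.56 and -0.43. Rab27b, a small GTPase gene of secretory granules, differed by 0.24 (-0.20 to 0.69) on 3 arrays of each group, and by 0.13 to 0.39 with 1 array left out.

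Of 10 other genes on the array with the ZP domain that names the zona proteins, 6 had a value on at least 1 of the samples. Dmbt1, Tgfbr3 and Umodl1 were listed on all 8 arrays and could be tested, and 0 passed (limma). None reached an unadjusted p under 0.05 (limma) either, against 9.63% of all tested probe sets. The median of these tested genes was 0.093. Umodl1, a uromodulin-like gene, had 8813, 11774, 10151 and 10910 on the untreated and 11051, 10125, 11930 and 11150 on the milrinone arrays, a difference of 0.093 (95% interval -0.11 to 0.30). Dmbt1 differed by 0.16 (-0.29 to 0.60) and the TGF-beta co-receptor gene Tgfbr3 by -0.14 (-0.48 to 0.20). With 1 array left out the values of Umodl1 ran from 0.016 to 0.15, those of Dmbt1 from 0.035 to 0.36 and those of Tgfbr3 from -0.24 to -0.026. Eng, another TGF-beta co-receptor gene, had values at 1 of its 2 probe sets on all 4 untreated arrays, with a mean of 117 ± 5.88 (SD, n = 4), and empty cells on all 4 milrinone arrays, and this difference was not tested. The probe set taken for Umod had values on 1 untreated and 2 milrinone arrays and that of Tecta on 2 milrinone arrays. Tectb, Gp2, Cuzd1 and Oit3 had no value on any of the 8 arrays.

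Of the astacin proteases related to ovastacin, and the gene of its plasma inhibitor fetuin-B, 3 of 6 genes could be tested and 0 passed (limma). Among these 3, 2 had an unadjusted p under 0.05, as did 9.63% of all tested probe sets. Mep1b, which encodes a meprin subunit, had 342, 383, 475 and 348 on the untreated and 501, 557, 514 and 531 on the milrinone arrays, a difference of 0.44 (95% interval 0.11 to 0.77, adjusted p = 0.469). Tll1, a tolloid-like protease gene, had 31.7, 55.5, 59.8 and 51.4 and then 70.7, 78.7, 81.5 and 69.0, a difference of 0.49 (0.13 to 0.85, limma adjusted p = 0.460). At such low signals its size depended on the 16 added before log2, and it was 0.62 with 1 and 0.30 with 64 added instead. In both genes every milrinone value lay above every untreated one, which 7.8% of tested probe sets did in 1 direction or the other, whereas the difference of Astl had the opposite sign. Fetub differed by 0.11 (-0.20 to 0.42), and by 0.025 to 0.19 with 1 array left out.

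**Figure D5:**
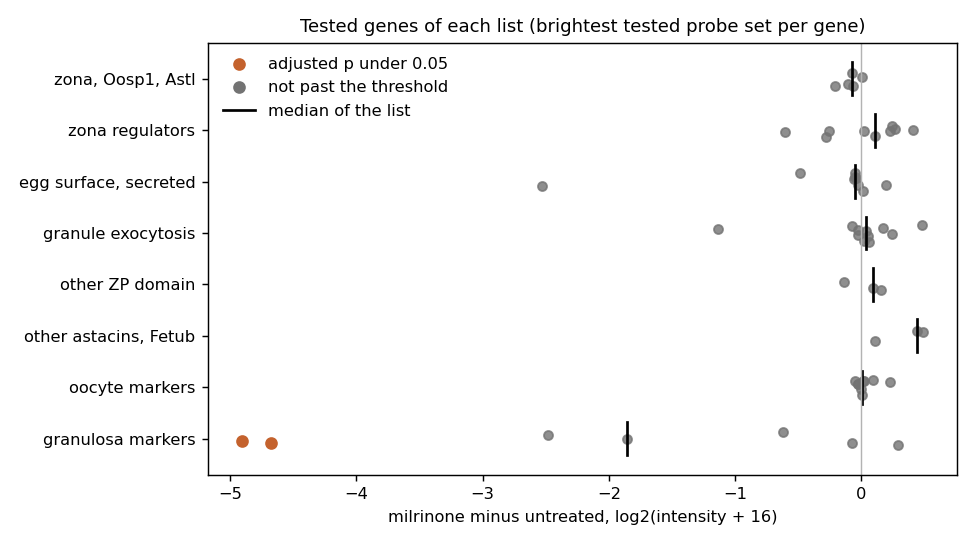
Milrinone minus untreated on the log2(intensity + 16) scale for each tested gene of the lists, with 1 point per gene and a black line at the median of each list. Orange points passed at an adjusted p under 0.05, and they are Gja1 and Grem1 among granulosa markers, while the 5 zona, Oosp1 and Astl points lie between -0.21 and 0.0087.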

How the data were processed

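The authors deposited 1 linear intensity per probe set and array. Their software, their scaling and their reason for empty cells are not stated in the labels or the file. Empty cells, 48.4% to 58.7% of an array, stayed empty. Symbols were updated through Entrez identifiers to RefSeq names for 34741 of the 34945 probe sets with 1 symbol, while 932 had several symbols and 9160 none among 45037 that are not controls. A probe set counts as listed where it holds a value. Those listed on 3 or more arrays of each group entered the test, which gave 16288 and kept all 5 members. Log2(intensity + 16) was fitted by lmFit and trended eBayes of limma 3.58.1 under R 4.3.3, two-sided, with p-values adjusted by Benjamini-Hochberg over all tested probe sets, after the script was tested on simulated data. Plots used Python 3.11.15 and matplotlib 3.10.9. Precision is limited by the number of arrays, with a median standard error of 0.17 for a log2 difference.

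The members and lists were chosen with earlier results of these data known. Named genes were the members, up to 3 genes of each list with the smallest p and, for each member, 2 genes with the highest r. Oosp3, Nobox, Lhx8, Izumo1r, Mfge8, Eng, Umod, Tecta and the marker genes without values or not tested were named after their values were seen. Untreated 1 stood apart: its median r with the rest was 0.930, where the other 7 arrays had 0.966 to 0.980. The 3′ to 5′ signal ratio of the Actb control was 6.87 to 13.1 in untreated and 11.6 to 20.4 in milrinone samples, and that of Gapdh 6.23 to 7.68 and 6.09 to 8.25. Alternatives covered the pseudocount, filters, scaling, array weights, the replicate block, the permutation test and left-out arrays.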

Additional observations from a re-analysis of the deposited data

Results flagged for a closer look

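In the milrinone samples Zp1 had 1 array far from the other 3. Milrinone 4 was at 10567 and the others at 9187 to 9284, so that the gap to the nearest was 0.930 of the range of the group, above Dixon's 95% critical value for 4 samples. By chance about 1 in 20 groups would do so, which is 0.5 for the 10 groups of these genes, and 1 did.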

How the results depend on the processing

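Of 105 values of the 5 members under 21 alternatives, 98 kept their sign and 0 passed the threshold, and the count of members past it was 0 in all 20 limma settings. The 98 include values that could not turn. Every array listed the members, so the filters, the fit without the eBayes trend, the replicate block and the permutation test left their differences unchanged. Those settings bear on the p-values only. Zp1 ranged from -0.17 to 0.11, Zp2 from -0.14 to 0.075, Zp3 from -0.12 to 0.10, Oosp1 from -0.025 to 0.19 and Astl from -0.32 to -0.029. The sign turned with ribosomal protein centring for Zp1 (0.11), Zp2 (0.075) and Zp3 (0.10), and with median centring for Oosp1 (-0.021). With 1 array left out Zp1 ranged from -0.11 to 0.012, turning without untreated 2, and Oosp1 from -0.025 to 0.048, turning to -0.025 without untreated 1 and to -0.00044 without milrinone 2. Without untreated 1 and 4, an alternative chosen after seeing the data, Astl was -0.32 (adjusted p = 0.456).

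All tested probe sets past the threshold numbered 19. They were 12 when listed on all 8 arrays, 10 among brighter probe sets, 54 with ribosomal protein centring, 106 with array weights and 85 without untreated 1 and 4, and 9 to 69 with 1 array left out (69 without untreated 1, 9 without milrinone 3). In the egg surface list 1 gene passed with ribosomal protein centring, array weights, or without untreated 1 and 4, and 0 to 1 with 1 array left out (1 without untreated 1), and that gene was Cd81. In the granulosa list, 1 of 2 calls was left when listed on all 8 arrays, and 1 to 4 with 1 array left out (4 without untreated 1, 1 without milrinone 3). The cause of these shifts was not tested, apart from the fewer probe sets or arrays in the settings that leave some out. Of 410 values of the genes named from lists, 392 kept their sign and side of the threshold. The filters and the fit without the eBayes trend could not turn a sign here either, and could move only the p-values. Signs turned for Gdf9 with quantile normalization (0.0014) and ribosomal protein centring (0.13), Tgfbr3 with ribosomal protein centring (0.036), Fetub with array weights (-0.078) and Kit with array weights (-0.16), without untreated 1 (-0.0081) and without untreated 4 (-0.0017), in a range of -0.0081 to 0.18 with 1 array left out. Without untreated 1 and 4 they turned for Rab27b (-0.040), Dmbt1 (-0.087), Fetub (-0.017), Figla (-0.038) and Kit (-0.19).

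A fit with the replicate number as a block (replicate block) could not change the differences of the members. Every array listed the members and each replicate number occurs in both groups, so only their standard errors and p-values could move. The limma adjusted p was 0.638 for Zp2, 0.642 for Astl, 0.647 for Zp3, 0.836 for Zp1 and 0.964 for Oosp1. The labels share numbers but do not tie samples, and 0 of 4 same-numbered pairs had deviations that correlated above 0.1.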
